A study of Mus musculus with 6 samples.

Results

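Activation of the kinase BRAF in mouse melanocytes was described from the array of cells with BRAF activated, called BRAF-on, and the array of cells with BRAF not activated, called BRAF-off. These are 2 of the 6 arrays in the series, taken by their labels, with 1 array a side. The cells were melan-a, an immortal mouse melanocyte line that came from epidermal melanoblasts of C57BL/6 embryos. All 6 cultures were transduced with delta-BRAF-ER, an activated BRAF fused to an oestrogen receptor domain and switched on by tamoxifen. BRAF-on carried this construct activated and no other factor. The 4 other activated cultures carried it together with ZEB2, SNAIL2, TWIST1 or ZEB1, transcription factors of embryonic development, and serve here only to show whether a difference recurs. BRAF-off carried the same construct without activation. The dose and time of tamoxifen, the promoter of the construct, and whether cells were cloned or pooled are not given in the sources used here. No array is labelled tamoxifen without the construct, so an effect of the drug and a difference between cultures cannot be told apart from BRAF activation.

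BRAF passes growth signals from RAS to the kinases MEK and ERK. Active ERK switches on immediate early genes, among them members of the AP-1 family of transcription factors, and AP-1 in turn acts on promoters of matrix metalloproteinases, inflammatory factors and growth factors. ERK also switches on its own inhibitors, the dual specificity phosphatases, Sprouty and SPRED proteins. In melanocytes the pathway acts on MITF, the factor that drives pigment genes, and mutated BRAF is common in naevi and melanoma.

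Each value is a MAS5 signal, the brightness of a probe set on a linear scale. Signals under a floor of 63.7, the median of all values on the 6 arrays, were raised to it, and a gene was compared where BRAF-on or BRAF-off reached the floor. A ratio with 1 of the 2 signals under the floor is a bound, given as "at least". With 1 array a side there is no spread between replicates, no test was made, and every fold compares these 2 arrays and not the conditions at large. Of 11200 genes compared, in BRAF-on 116 (1.04%) lay at least 2-fold above BRAF-off and 43 (0.384%) at least 2-fold below it. The median log2 ratio of BRAF-on over BRAF-off was -0.00 over all genes, and 93.6% of them lay within 1.5-fold. Just inside the threshold lay Tnc (1.003) and Pilrb1 (1.01), and just outside it Egr1 (0.97) and Bgn (-0.98).

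The genes that differed were mostly dim ones. Of the 1193 genes whose brighter signal lay between 128 and 256, 70 were at least 2-fold higher and 24 lower in BRAF-on, together 7.88%. Between 1024 and 4096 these were 13 and 4 of 3651 genes, 0.466%. Above 4096 no gene of 1188 was 2-fold higher and 2 were lower. Of the 116 higher genes 54 were bounds, and of the 43 lower genes 9 were.

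**Figure D1:**
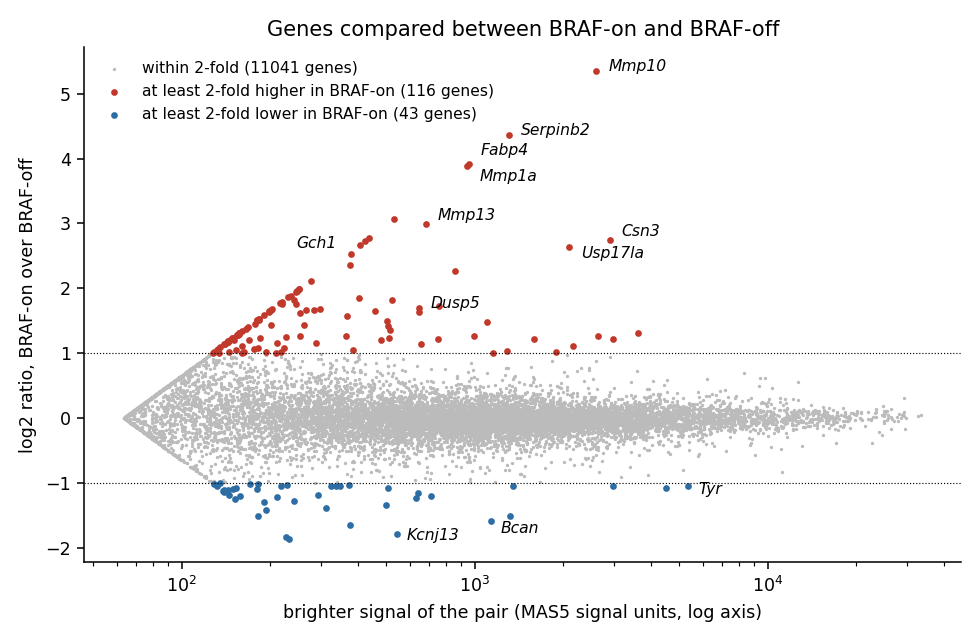
Each point is one of the 11200 genes compared, placed by the brighter of its 2 signals (log axis, MAS5 signal units) and by its log2 ratio of BRAF-on over BRAF-off. Dotted lines mark 2-fold; the 116 higher genes reach much farther from 0 than the 43 lower ones, led by Mmp10 at a log2 ratio of at least 5.35, and the cloud widens towards dim signals.

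On every array the mean signal without the lowest and highest 2% was 500.0, and 10611 (BRAF-off) to 11269 (array labelled ZEB1) of 18193 genes reached the floor, 11019 of them in BRAF-on. The median probe set gave 67.1 in BRAF-on and 58.5 in BRAF-off. Centring the arrays on that median moved the median log2 ratio of all genes to -0.20 and gave 92 higher and 101 lower genes, so 47.7% of the genes past 2-fold were higher, against 73.0% without centring. List medians below are therefore to be read against the median of all genes. Likewise, list counts are to be read against the 1.04% of all genes 2-fold higher and the 0.384% 2-fold lower. Of all genes 49.7% lay above 0 and 50.3% below it. The lists were chosen with earlier results of these data known. The ratio of 3' to 5' signal, a sign of RNA integrity, was 0.811 in BRAF-on and 0.839 in BRAF-off for Gapdh, and 1.47 in BRAF-on and 1.48 in BRAF-off for beta-actin. Spiked poly-A controls had a median log2 ratio of -0.26 over 24 probe sets, and hybridization controls one of -0.14 over 18. Braf itself gave 687 in BRAF-on and 758 in BRAF-off, but the sources used here do not say whether its probe set covers the construct. The probe sets used for the added factors were not 2-fold higher on the array with that label than in BRAF-on: Zeb2 was at 1132 on its array and 806 in BRAF-on, Snai2 at 3142 on its array and 4175 in BRAF-on, Twist1 at 278 on its array and 338 in BRAF-on, and Zeb1 at 109 on its array and 134 in BRAF-on. These 4 arrays are therefore named by their labels, and "with ZEB2" and the like mean the array so labelled.

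The arrays carried the markers of the labelled cell type, melanocytes. All 10 pigment cell markers were above the floor on both arrays, with a summed signal of 67988 in BRAF-on and 93829 in BRAF-off. Endothelial markers summed to 397 in BRAF-on and 206 in BRAF-off, with 2 of 9 compared. These were Cdh5 and Kdr, both above 0 with a median log2 ratio of 0.68 and neither past 2-fold. Pecam1 and Tek were under the floor on both arrays. Macrophage and leukocyte markers summed to 623 in BRAF-on and 711 in BRAF-off, with 3 of 10 compared and Ptprc, Itgam and Adgre1 under the floor on both. Keratinocyte markers summed to 601 in BRAF-on and 510 in BRAF-off, and fibroblast markers to 7074 in BRAF-on and 7846 in BRAF-off. In a bulk culture, fewer cells of a type and less RNA per cell cannot be told apart.

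Matrix metalloproteinases, the secreted enzymes that cut collagen and other matrix proteins, held some of the widest differences. Of 22 matrix protease genes compared, 5 were at least 2-fold higher in BRAF-on and none was 2-fold lower, with a median log2 ratio of 0.25. Over all genes these shares were 1.04% and 0.384%. The stromelysin gene Mmp10 had a signal of 2606 in BRAF-on, 1382 with ZEB2, 637 with SNAIL2, 2348 with TWIST1, 6592 with ZEB1 and 38.4 in BRAF-off. All 5 activated arrays lay far above BRAF-off, the one labelled ZEB1 highest and the one labelled SNAIL2 lowest, and the BRAF-on signal was at least 40.9-fold that of BRAF-off. Mmp1a, a collagenase gene, had a signal of 946 in BRAF-on, 433 with ZEB2, 170.1 with SNAIL2, 2313 with TWIST1, 2628 with ZEB1 and 10.1 in BRAF-off. Its signals with ZEB1 and TWIST1 were above BRAF-on, and those with ZEB2 and SNAIL2 below it, with a bound of 3.89 on the log2 ratio. For Mmp10 the signal with TWIST1 was below BRAF-on. The collagenase gene Mmp13 was at 683 in BRAF-on, 373 with ZEB2, 261 with SNAIL2, 1137 with TWIST1, 7843 with ZEB1 and 86.1 in BRAF-off. Its BRAF-off signal was above the floor, so its log2 ratio of 2.99 is measured on both sides. Mmp3, the other stromelysin gene of this group, was at 248 in BRAF-on, 187 with ZEB2, 152 with SNAIL2, 1192 with TWIST1, 1756 with ZEB1 and 27.4 in BRAF-off, a log2 ratio of at least 1.96. Adam8, a membrane-bound metalloproteinase gene, was at 457 in BRAF-on, 307 with ZEB2, 286 with SNAIL2, 444 with TWIST1, 774 with ZEB1 and 146 in BRAF-off, a 3.13-fold difference.

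The 4 Mmp genes lie in the same row of Mmp genes, with Mmp12 and Mmp1b between Mmp13 and the others. On chromosome 9, by the RefSeq gene table of GRCm38.p6, Mmp13, Mmp12, Mmp1b, Mmp3, Mmp1a, Mmp10, Mmp8, Mmp27, Mmp20 and Mmp7 follow one another. Mmp1b, a close copy of Mmp1a, was at 73.3 in BRAF-on and 1.30 in BRAF-off, a log2 ratio of at least 0.20. Mmp12, Mmp8, Mmp20 and Mmp7 were under the floor on both arrays, and Mmp27 was not analysed here. The genes next to the row were near 0, Dcun1d5 at a log2 ratio of 0.12 and Tmem123 at -0.19. Several proteases outside the row lay nearer to 0. Mmp14, a membrane-anchored activator of other MMPs, had a log2 ratio of -0.18, the gelatinase gene Mmp2 one of -0.33 and Adam12 one of -0.42. Among activators of plasminogen, Plat had a log2 ratio of 0.56, and the lysosomal protease gene Ctsl had one of 0.50.

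The promoters of these 4 genes are shown because each holds one match to the AP-1 letters TGAGTCA, or TGACTCA on the opposite strand, close to the gene's start. Each window runs from 250 bases before the RefSeq start to 50 after it on GRCm38.p6, 5' to 3' along the gene, plus strand, and capitals mark the AP-1 match. Counted from the start, the match begins at -63 in Mmp10 (chr9:7502092-7502391), -73 in Mmp1a (chr9:7463891-7464190), -35 in Mmp13 (chr9:7272264-7272563) and -46 in Mmp3 (chr9:7445572-7445871).
Mmp10: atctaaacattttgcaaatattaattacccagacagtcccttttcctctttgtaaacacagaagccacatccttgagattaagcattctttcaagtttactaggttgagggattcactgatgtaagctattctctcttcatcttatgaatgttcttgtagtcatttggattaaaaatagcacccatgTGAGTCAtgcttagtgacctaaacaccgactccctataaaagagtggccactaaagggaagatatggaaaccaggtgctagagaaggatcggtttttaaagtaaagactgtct
Mmp1a: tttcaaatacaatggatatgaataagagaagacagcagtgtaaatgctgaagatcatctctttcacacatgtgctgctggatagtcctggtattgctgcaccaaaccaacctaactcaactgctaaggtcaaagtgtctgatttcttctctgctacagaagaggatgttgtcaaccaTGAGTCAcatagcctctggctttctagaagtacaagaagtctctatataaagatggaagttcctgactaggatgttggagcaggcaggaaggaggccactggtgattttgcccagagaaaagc
Mmp13: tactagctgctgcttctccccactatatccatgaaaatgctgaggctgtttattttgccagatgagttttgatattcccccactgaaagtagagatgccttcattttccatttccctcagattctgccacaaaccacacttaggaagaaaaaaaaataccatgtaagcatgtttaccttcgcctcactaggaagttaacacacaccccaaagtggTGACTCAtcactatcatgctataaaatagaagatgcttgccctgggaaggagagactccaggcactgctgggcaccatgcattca
Mmp3: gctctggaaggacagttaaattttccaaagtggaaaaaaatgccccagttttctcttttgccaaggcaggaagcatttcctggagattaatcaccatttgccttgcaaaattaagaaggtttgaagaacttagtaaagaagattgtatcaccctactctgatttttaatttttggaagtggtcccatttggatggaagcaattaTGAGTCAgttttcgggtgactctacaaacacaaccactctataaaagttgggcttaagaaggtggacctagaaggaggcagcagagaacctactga

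Of the 116 higher genes 81 had such a window, and 21 of these (25.9%) held an AP-1 match on either strand. This share was 18.2% (8 of 44) for higher genes at or above the floor on both arrays. It was 35.1% (13 of 37) for higher genes with a bound, which were compared only through BRAF-on. The share was 10.8% for the lower genes (4 of 37), 4.66% for all 9125 compared genes with a window and 5.95% for all 27025 genes with one. Among genes between 1.5-fold and 2-fold higher it was 10.4%. Since higher genes are often dim, the share was also taken over genes with a brighter signal under 256: it was 21.6% (11 of 51) for the higher ones and 6.08% for all. Other higher genes with a match were Lif (at -228), the complement receptor gene C3ar1 (at -22), Upp1, Procr and Sprr1a. The 4 Mmp genes are paralogs in the same row, so their matches are not separate observations, and a match describes letters and not a bound site.

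Inhibitors of proteases had 1 of 7 compared genes at least 2-fold higher and a median log2 ratio of 0.21. This was Serpinb2, the plasminogen activator inhibitor of type 2, at 1310.3 in BRAF-on, 718 with ZEB2, 360.2 with SNAIL2, 2104 with TWIST1, 3948 with ZEB1 and 7.92 in BRAF-off. It was under the floor only in BRAF-off, and the bound on its log2 ratio was 4.36. Timp1, an inhibitor of MMPs, had a log2 ratio of 0.32 at 7741 in BRAF-on and 6219 in BRAF-off. Timp2 (0.03) was near 0, and Reck, a membrane inhibitor of MMPs, was at -0.40. Plaur, the receptor that holds urokinase at the cell surface and a known ERK output, was at 1843 in BRAF-on and 1003 in BRAF-off, a log2 ratio of 0.88, short of 2-fold.

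The list of secreted growth factors had 2 of 14 compared genes at least 2-fold higher, none lower, and a median log2 ratio of 0.36. Pgf, a VEGF family growth factor outside this list, was lower in BRAF-on, at a log2 ratio of -1.21. Btc, which encodes the EGF receptor ligand betacellulin, was at 220.1 in BRAF-on, 147 with ZEB2, 71.2 with SNAIL2, 205 with TWIST1, 310.0 with ZEB1 and 54.9 in BRAF-off, at least 3.45-fold above BRAF-off in BRAF-on. Lif, a cytokine of the interleukin 6 family, was at 511 in BRAF-on, 235 with ZEB2, 184 with SNAIL2, 288 with TWIST1, 761 with ZEB1 and 218 in BRAF-off, a 2.34-fold difference. Unlike Btc, Lif was lower with SNAIL2 than in BRAF-off. Hbegf, another EGF receptor ligand, reached a log2 ratio of 0.79 at 1557 in BRAF-on and 901 in BRAF-off, and Tgfb1 one of 0.65. Receptors for such factors had none of 14 past 2-fold and a median of -0.04. Egfr itself had a log2 ratio of 0.56, while Kit, the stem cell factor receptor that melanocytes depend on, had one of -0.81, Mc1r, the melanocortin receptor, -0.63, and Met, the hepatocyte growth factor receptor, -0.56.

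Chemokines and cytokines had 3 of 17 compared genes at least 2-fold higher, Lif among them, and a median log2 ratio of 0.20. Ccl2, which draws monocytes, was at 2644 in BRAF-on, 1272 with ZEB2, 564 with SNAIL2, 5449.8 with TWIST1, 4455 with ZEB1 and 1097 in BRAF-off. Ccl5, which draws T cells and monocytes, was at 2167 in BRAF-on, 1466 with ZEB2, 1338 with SNAIL2, 5448 with TWIST1, 6839.6 with ZEB1 and 1008 in BRAF-off. In BRAF-on they were 2.41-fold and 2.15-fold above BRAF-off, and both were higher still with TWIST1 and ZEB1, but Ccl2 was lower with SNAIL2 than in BRAF-off. With centring, the log2 ratio of Ccl5 came to 0.91. Cx3cl1 had a log2 ratio of 0.77, Cxcl10 0.49 and Il6, a cytokine of senescent cells, 0.36. The cytokine genes Il1a, Tnf and Il11 were under the floor on both arrays. Il24, a cytokine first found in differentiating melanoma cells, is outside this list and was at 265 in BRAF-on and 83.6 in BRAF-off, a 3.17-fold difference.

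**Figure D2:**
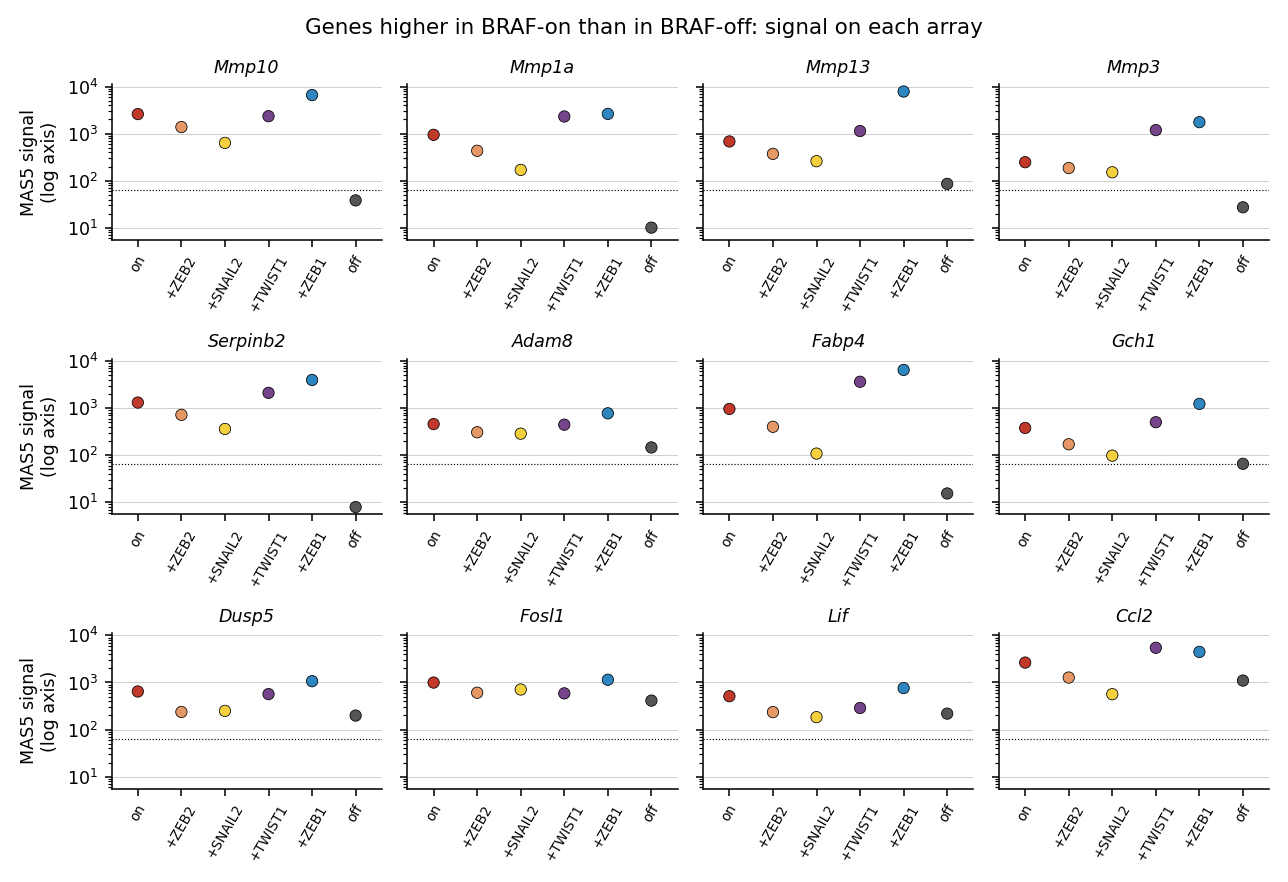
MAS5 signal (log axis) of 12 genes higher in BRAF-on, 1 point per array, from BRAF-on on the left through the 4 arrays with an added factor to BRAF-off on the right; the dotted line is the floor of 63.7. Mmp10, Mmp1a, Mmp3, Serpinb2 and Fabp4 drop under the floor in BRAF-off alone, whereas Lif and Ccl2 are lower with SNAIL2 than in BRAF-off.

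The kinase chain from RAS to ERK was flat at the level of RNA. None of 11 compared genes passed 2-fold, their log2 ratios lay between -0.14 (Braf and Nras) and 0.15 (Araf), and the median was -0.04. Map2k1, which encodes MEK1, was at 4148 in BRAF-on and 4274 in BRAF-off, and Map2k2, which encodes MEK2, at 2206 in BRAF-on and 2247 in BRAF-off. Nf1, which encodes a brake on RAS, had a log2 ratio of -0.00. The scaffold gene Ksr1 (-0.04), the RAS exchange factor genes Sos1 (-0.08) and Sos2 (0.09), Shoc2 (-0.09) and Rasa1 (0.01), which encodes another brake on RAS, were level too. The other 5 genes of the list were not analysed here.

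Feedback inhibitors of ERK split. Of 12 compared genes only Dusp5 was at least 2-fold higher, none was lower, and the median log2 ratio was 0.10, or -0.10 with centring. Dusp5, a nuclear phosphatase that acts on ERK, was at 644 in BRAF-on, 236 with ZEB2, 249 with SNAIL2, 566 with TWIST1, 1065 with ZEB1 and 198 in BRAF-off. BRAF-on was 3.25-fold above BRAF-off, while the signals with ZEB2 and SNAIL2 came close to BRAF-off. Dusp6, the cytoplasmic ERK phosphatase, was at 6269 in BRAF-on and 6514 in BRAF-off, a log2 ratio of -0.06. Dusp4 (-0.29), Spry2 (-0.33) and Spry1 (-0.23) lay below 0 and Spred3 (0.72) and Errfi1 (0.30), which encodes an EGF receptor inhibitor, above it. Spry4 (0.09), Spred1 (0.05), Spred2 (0.11), Dusp7 (0.19) and Dusp2 (0.27) were within 1.5-fold.

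AP-1 and other immediate early factors lay above 0 in 14 of 16 cases, against 49.7% of all genes. Their median log2 ratio was 0.53 (0.33 with centring), and 2 of them were at least 2-fold higher, against 1.04% of all genes. Atf3, a stress-induced factor that pairs with JUN proteins, was at 515 in BRAF-on, 305 with ZEB2, 278 with SNAIL2, 490.1 with TWIST1, 876 with ZEB1 and 202 in BRAF-off, a 2.55-fold difference. Fosl1, which encodes the AP-1 subunit FRA1, was at 995 in BRAF-on, 606 with ZEB2, 709 with SNAIL2, 587 with TWIST1, 1142 with ZEB1 and 412 in BRAF-off, a 2.42-fold difference. Egr1, a zinc finger factor induced by growth factors, was just short of 2-fold at 2061 in BRAF-on, 1352 with ZEB2, 1075 with SNAIL2, 2172 with TWIST1, 3242 with ZEB1 and 1051 in BRAF-off. On all 5 activated arrays the 3 genes were above BRAF-off. Junb (0.69), Jun (0.55), Ier2 (0.60), Ier3 (0.58), Nr4a2 (0.67) and Egr3 (0.51) had log2 ratios above 0.5. Fos (0.10), Fosl2 (0.00), Jund (-0.12), Myc (0.06), Maff (0.20) and Nr4a1 (0.22) were nearer to 0, and Fosb and Egr2 were under the floor on both arrays. Nr4a3, an orphan nuclear receptor gene, went the other way, at 604 in BRAF-on, 2077 with ZEB2, 3984 with SNAIL2, 42.3 with TWIST1, 271 with ZEB1 and 1083 in BRAF-off. Its log2 ratio was -0.84, and it was above BRAF-off with ZEB2 and SNAIL2. ETS factors and other ERK outputs had none of 10 past 2-fold and a median of 0.01: Etv4 was at 0.28, Etv5 at -0.38 and Ccnd1, the cyclin that ERK supports in G1, at -0.07.

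The listed genes of the interferon response and of antigen presentation differed little one by one but mostly in the same direction. Of 28 interferon response genes compared, none passed 2-fold and 23 lay above 0, against 49.7% of all genes, with a median log2 ratio of 0.24 (0.05 with centring). Stat2, part of the factor that carries the interferon signal, was at 362 in BRAF-on and 245 in BRAF-off, and Zbp1, a nucleic acid sensor, at 1673 in BRAF-on and 1173 in BRAF-off. Ifit1 (0.26), Mx1 (0.18) and Irf7 (-0.02) were within 1.5-fold. Outside this list, Ifit1bl2 had a log2 ratio of 1.66, and 2 of 5 compared genes of the interferon-inducible Ifi200 family were at least 2-fold higher. Of 12 genes that present peptides on MHC class I molecules, none passed 2-fold and 11 lay above 0, with a median of 0.45 (0.25 with centring). Psmb8, a subunit of the immunoproteasome, was at 1280.5 in BRAF-on, 697 with ZEB2, 563 with SNAIL2, 3422 with TWIST1, 2642 with ZEB1 and 753 in BRAF-off, and Psmb9, another such subunit, had a log2 ratio of 0.67. H2-K1, a class I heavy chain, was at 9457 in BRAF-on, 7338 with ZEB2, 5574 with SNAIL2, 14266 with TWIST1, 14896 with ZEB1 and 6187 in BRAF-off, and H2-D1 at a log2 ratio of 0.56. These genes were above BRAF-off in BRAF-on and with TWIST1 and ZEB1, whereas all 4 were below it with SNAIL2, and Psmb8 and Psmb9 with ZEB2 as well. The peptide transporter gene Tap1 had a log2 ratio of 0.50, B2m one of 0.11 and the peptide trimming gene Erap1 one of -0.44. The heavy chain genes are close copies of each other, so probes may read more than one.

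Tetrahydrobiopterin is the cofactor of aromatic amino acid hydroxylases and nitric oxide synthases. Of 6 genes of its synthesis and recycling, 2 were at least 2-fold higher, and the median log2 ratio was -0.01. Gch1, which encodes the first and rate-limiting enzyme, GTP cyclohydrolase, was at 378 in BRAF-on, 171 with ZEB2, 97.7 with SNAIL2, 502 with TWIST1, 1227 with ZEB1 and 65.6 in BRAF-off. Gchfr, which encodes the protein that binds this enzyme and sets its feedback, was at 178 in BRAF-on, 122 with ZEB2, 73.2 with SNAIL2, 88.4 with TWIST1, 199 with ZEB1 and 65.2 in BRAF-off. Both were highest with ZEB1 and lowest in BRAF-off, although the BRAF-off signals lay barely above the floor. In BRAF-on Gchfr was 2.73-fold above BRAF-off. Gch1 had a log2 ratio of 2.53 on the probe set used. Its other probe set was at 86.5 in BRAF-on and 28.6 in BRAF-off, a log2 ratio of at least 0.44. The later enzymes were flat, Pts at a log2 ratio of 0.06 and Spr at -0.12, as were the recycling genes Qdpr (-0.07) and Pcbd2 (-0.08), and Pcbd1 was under the floor on both arrays.

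Most pigment genes were lower in BRAF-on than in BRAF-off, and most of them by less than 2-fold. All 6 genes for melanin enzymes and melanosome proteins lay below 0, 1 of them past 2-fold, and the median log2 ratio was -0.40. Tyr, which encodes tyrosinase, the first enzyme of the melanin route, was at 2583 in BRAF-on, 7467 with ZEB2, 9714 with SNAIL2, 28.7 with TWIST1, 922 with ZEB1 and 5366 in BRAF-off. The ratio of BRAF-off to BRAF-on was 2.08. Mlana, a melanosome protein, was at 6269.6 in BRAF-on, 12368 with ZEB2, 13282 with SNAIL2, 42.1 with TWIST1, 1533 with ZEB1 and 11194 in BRAF-off. For both genes the arrays labelled ZEB2 and SNAIL2 were above BRAF-off, and the one labelled TWIST1 was under the floor. The other melanin enzymes differed less, Dct at a log2 ratio of -0.21 and Tyrp1 at -0.38, as did the fibril protein gene Pmel (-0.43) and Gpnmb (-0.29).

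Channels and transporters of the pigment cell had 2 of 7 genes at least 2-fold lower and a median log2 ratio of -0.87, with all 7 below 0. Over all genes 0.384% were 2-fold lower and 50.3% below 0. Kcnj13, a potassium channel gene, was at 157 in BRAF-on, 682 with ZEB2, 1061 with SNAIL2, 1.83 with TWIST1, 166 with ZEB1 and 542 in BRAF-off, a log2 ratio of -1.79. Oca2, which encodes an anion channel of the melanosome membrane, was at 652 in BRAF-on, 2118 with ZEB2, 4105 with SNAIL2, 17.5 with TWIST1, 252 with ZEB1 and 1351 in BRAF-off. Both were above BRAF-off with ZEB2 and SNAIL2 and below it on the other activated arrays. Gpr143, the receptor gene of ocular albinism, had a log2 ratio of -0.99, the transporter gene Slc45a2 -0.87 and the channel gene Trpm1 -0.47. Genes for melanosome transport had none of 13 past 2-fold and a median of -0.17. Within that list the carriers of RAB27A to myosin differed: Mlph, the adaptor melanophilin, was at 784 in BRAF-on and 1433 in BRAF-off, a log2 ratio of -0.87, and the motor gene Myo5a had one of -0.62. The sorting genes Rab38 (-0.83) and Rab32 (-0.75) were also below 0, while Hps1 (0.02), Hps4 (0.23) and Hps5 (0.28) were not.

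Transcription factors of the melanocyte lineage had 1 of 14 genes past 2-fold and a median log2 ratio of -0.21. This was Tfec, a close relative of Mitf, at 162 in BRAF-on, 289 with ZEB2, 648 with SNAIL2, 1.16 with TWIST1, 30.6 with ZEB1 and 336 in BRAF-off. Mitf, the factor that drives pigment genes, was at 5036 in BRAF-on, 11060.3 with ZEB2, 14255 with SNAIL2, 245 with TWIST1, 1410.3 with ZEB1 and 7191 in BRAF-off. Sox10, which acts upstream of Mitf, was at 2730.2 in BRAF-on, 5182 with ZEB2, 7757 with SNAIL2, 1941 with TWIST1, 2375 with ZEB1 and 3777 in BRAF-off. In all of these BRAF-on lay below BRAF-off, by log2 ratios of -1.05, -0.51 and -0.47 for Tfec, Mitf and Sox10, and the arrays labelled ZEB2 and SNAIL2 lay above BRAF-on. Lef1 had a log2 ratio of -0.83, Foxd3 -0.45, Tfap2a -0.22 and Pax3 -0.21. Of the factors known from epithelial to mesenchymal transition, the cells' own Zeb2 had a log2 ratio of -0.24, Snai2 0.08, Twist1 0.30 and Zeb1 0.60. Twist2 (0.29), Msx1 (0.50) and Tfe3 (0.21) were above 0, and Snai1 was under the floor on both arrays.

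**Figure D3:**
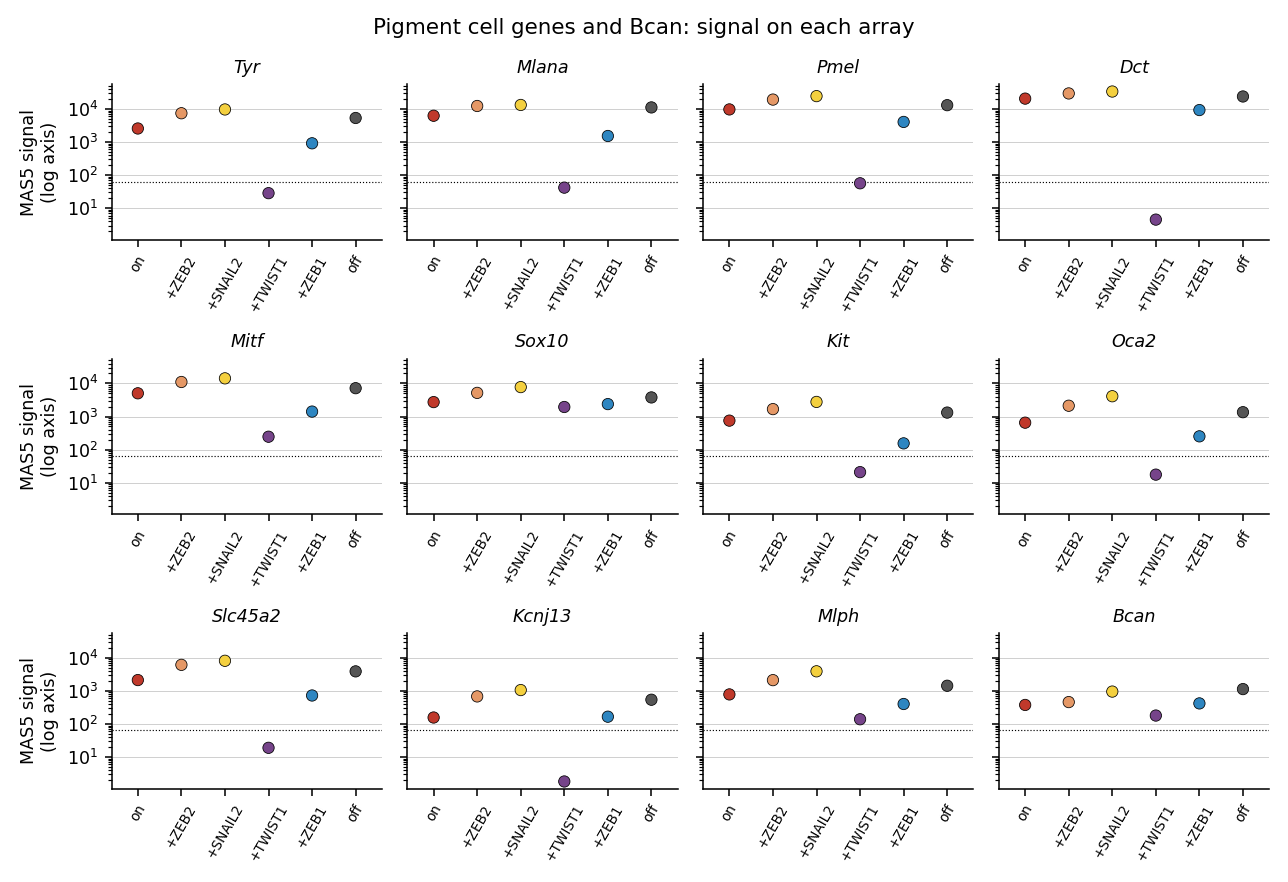
MAS5 signal (log axis) of 11 pigment cell genes and Bcan, 1 point per array, from BRAF-on on the left through the 4 arrays with an added factor to BRAF-off on the right; the dotted line is the floor of 63.7. BRAF-on lies below BRAF-off in each of the panels, at the widest by a log2 ratio of -1.79 (Kcnj13), and Tyr and Mlana are under the floor with TWIST1.

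MITF is known to bind the letters CATGTG, or CACATG on the opposite strand. The promoters of Tyr and Kcnj13 are shown because each holds one such match, at -21 and -112 from the start, in capitals below. They are on GRCm38.p6 at chr7:87493463-87493762 and chr1:87394680-87394979, minus strand, written along the gene with the same limits as above.
Tyr: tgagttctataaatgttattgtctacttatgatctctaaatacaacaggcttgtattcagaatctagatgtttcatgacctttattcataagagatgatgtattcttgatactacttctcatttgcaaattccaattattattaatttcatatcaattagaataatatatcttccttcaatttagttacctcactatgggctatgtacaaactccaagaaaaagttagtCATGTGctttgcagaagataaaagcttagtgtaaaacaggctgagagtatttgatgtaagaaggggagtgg
Kcnj13: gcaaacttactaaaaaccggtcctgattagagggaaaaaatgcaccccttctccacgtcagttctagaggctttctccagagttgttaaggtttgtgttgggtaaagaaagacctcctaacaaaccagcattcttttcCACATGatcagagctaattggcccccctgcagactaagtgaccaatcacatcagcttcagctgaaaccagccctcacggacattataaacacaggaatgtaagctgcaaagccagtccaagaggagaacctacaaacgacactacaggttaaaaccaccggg

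These letters are common. They were in 18.9% of the windows of lower genes (7 of 37), 17.3% of those of higher genes (14 of 81), 10.1% of the windows of compared genes and 15.9% of the windows of all genes. Oca2 (at -186) and Mgll (at -236) held a match too. In Mmp10 a CATGTG match at -67 overlaps the AP-1 match.

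Schwann and glial genes, which share the neural crest origin of melanocytes, had 1 of 10 past 2-fold and 9 of 10 below 0. Over all genes 50.3% were below 0. The median log2 ratio of the list was -0.33. Bcan, the proteoglycan brevican, was at 377 in BRAF-on, 459.9 with ZEB2, 955 with SNAIL2, 180.1 with TWIST1, 419 with ZEB1 and 1136 in BRAF-off. It was below BRAF-off on all 5 activated arrays, with a log2 ratio of -1.59 in BRAF-on. S100b, a calcium-binding protein of glia and melanocytes, had a log2 ratio of -0.58 and Erbb3, the neuregulin receptor, one of -0.50.

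Cholesterol synthesis genes had none of 19 past 2-fold, but 18 were below 0, against 50.3% of all genes, and the median log2 ratio was -0.25. Idi1, the isomerase of the isoprene step, was at 1268 in BRAF-on, 3058 with ZEB2, 2629.6 with SNAIL2, 706 with TWIST1, 566 with ZEB1 and 2022 in BRAF-off. Mvd (-0.62), Hmgcs1 (-0.59) and Pmvk (-0.51), enzymes of the mevalonate route, were next by size, and the regulator Srebf2 had a log2 ratio of -0.06. Fatty acid and lipid genes had 1 of 16 past 2-fold each way and a median of -0.12. Mgll, a lipase of monoglycerides, was at 1435 in BRAF-on, 5484 with ZEB2, 10176 with SNAIL2, 71.3 with TWIST1, 631 with ZEB1 and 2962 in BRAF-off, and Fasn, the fatty acid synthase, had a log2 ratio of -0.39. Fabp4, a fatty acid carrier of fat cells and macrophages, was at 959 in BRAF-on, 401 with ZEB2, 108 with SNAIL2, 3616 with TWIST1, 6449 with ZEB1 and 15.4 in BRAF-off. It was under the floor in BRAF-off only. The other listed adipocyte markers with a probe set, Adipoq, Cidec, Lep, Pparg and Retn, were under the floor in both BRAF-on and BRAF-off.

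Cell cycle genes were nearly level. Of 24 CDK inhibitors, p53 targets and senescence genes none passed 2-fold, and the median log2 ratio was 0.02. Cdkn1a, which encodes the CDK inhibitor p21, was at 921 in BRAF-on, 806 with ZEB2, 1100.2 with SNAIL2, 598 with TWIST1, 2287 with ZEB1 and 653 in BRAF-off, a log2 ratio of 0.50. Cdkn2a, the locus of p16 and p19ARF, was at 354 in BRAF-on and 281 in BRAF-off (0.33), Cdkn2b had a log2 ratio of -0.03, Cdkn1c -0.69 and Lmnb1, a lamin known to be lost in senescence, 0.33. None of 29 S phase genes passed 2-fold, with a median of -0.08, 21 of them below 0. Ccne1 stood at 0.37 and the flap nuclease gene Fen1 at -0.35, at the ends of that list. None of 29 mitosis genes did either, with a median of 0.01 and Mki67, the proliferation marker, at -0.09.

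Other listed programmes stayed within 2-fold as well. The BCL2 family list had none of 12 past 2-fold and a median log2 ratio of 0.01. Within it Hrk had a bound of 0.85, and Bbc3, which encodes PUMA, was at 0.56. Bcl2l14, a family member outside this list, was 3.36-fold higher in BRAF-on. Unfolded protein and ATF4 stress genes had none of 18 and a median of 0.09, with Vldlr at 0.93 and Ddit3, which encodes CHOP, at 0.56. Glycolysis and hypoxia genes had none of 19 and a median of 0.07, with Egln3 at 0.71. NRF2 antioxidant genes had none of 11 and a median of -0.18, with Gstm1 at -0.77. Cadherins and adhesion genes had none of 17 and a median of 0.12, with Jup, which encodes plakoglobin, at 0.72. Cdh1 was under the floor on both arrays, and Cdh2 had a log2 ratio of -0.18. With centring the medians of stress genes, glycolysis genes and adhesion genes lay below 0, at -0.10, -0.13 and -0.07.

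Mesenchymal and smooth muscle genes had 1 of 18 past 2-fold and a median log2 ratio of -0.01. Tnc, a matrix glycoprotein, was at 1154 in BRAF-on and 576 in BRAF-off, and with centring its log2 ratio was 0.81. The small proteoglycan gene Bgn was at 172 in BRAF-on and 340.3 in BRAF-off. Lox, which cross-links collagen (-0.65), and Tagln, an actin-binding protein (-0.61), were lower, while Vim (-0.00), Fn1 (-0.07) and Acta2 (-0.12) were level. TGF-beta response and ID genes had none of 11 past 2-fold and a median of -0.04. Id2 was the farthest from 0, at 1692 in BRAF-on and 3167 in BRAF-off (-0.90), whereas Id1 (-0.04) and Id3 (-0.10) were level. Binding proteins of insulin-like growth factors had none of 5 past 2-fold and a median of 0.22, with Igfbp7 at 0.22 and Igfbp3 at 0.11.

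Since tamoxifen acts on oestrogen receptors, genes of that response were looked at as a list of their own. None of the 7 compared passed 2-fold, and the median log2 ratio was 0.08 (-0.10 with centring). Another 8, among them the oestrogen targets Pgr and Greb1, were under the floor on both arrays. Tff1, also known as an oestrogen target, is outside this list. It was 2.83-fold higher, at 502 in BRAF-on and 177 in BRAF-off. Esr1 was at 63.9 in BRAF-on and 53.8 in BRAF-off, close to the floor. Nrip1 had a log2 ratio of 0.08 and Fkbp5 one of 0.13. The part of tamoxifen itself in the other differences was not tested.

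**Figure D4:**
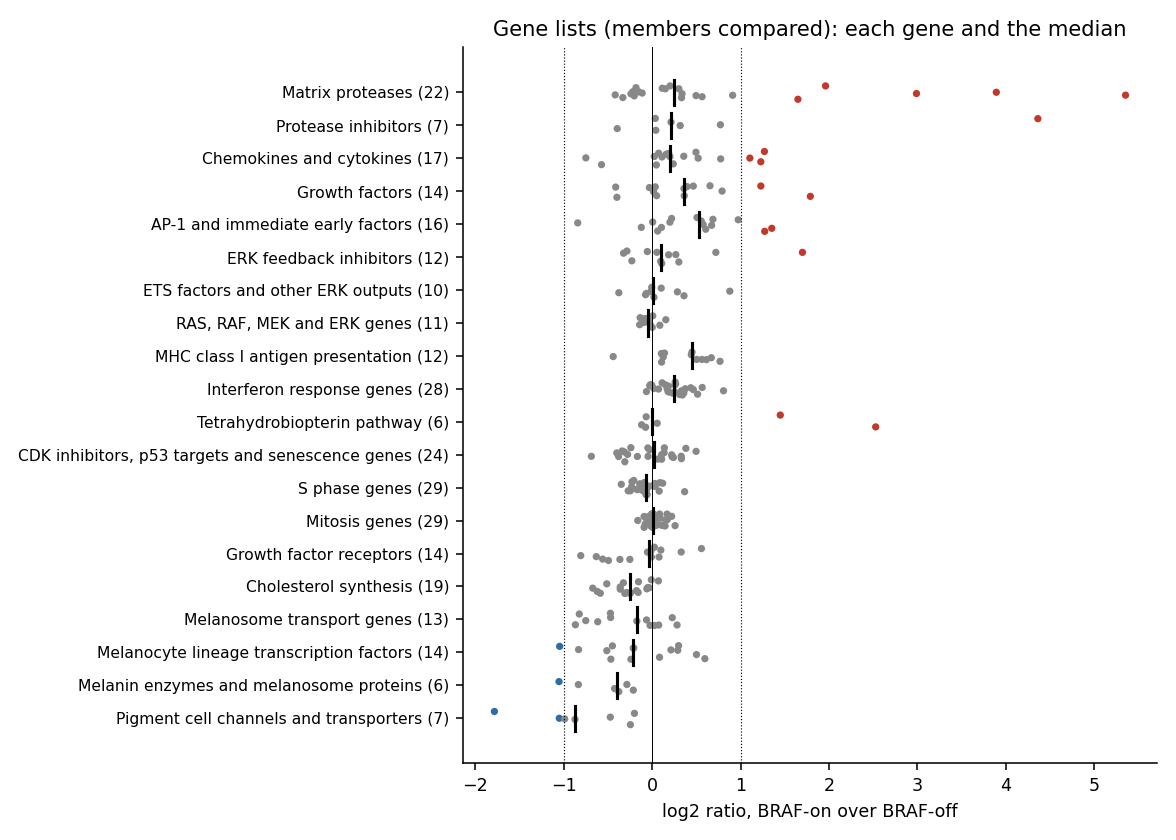
Log2 ratio of BRAF-on over BRAF-off (horizontal axis) for the compared genes of 20 lists, with the number of genes in brackets; the black bar is the median of a list, dotted lines mark 2-fold, and points past them are red (higher) or blue (lower). Single genes of the protease, inhibitor, growth factor, chemokine and tetrahydrobiopterin lists stand far to the right of their own medians, whereas the pigment channel list lies to the left as a whole.

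Several of the widest differences fell outside these lists. Csn3, which encodes the milk protein kappa-casein, was at 2894 in BRAF-on, 1152 with ZEB2, 526 with SNAIL2, 2094 with TWIST1, 14634 with ZEB1 and 430.1 in BRAF-off. Zfp352 was at 376 in BRAF-on, 167 with ZEB2, 147 with SNAIL2, 545 with TWIST1, 543 with ZEB1 and 73.3 in BRAF-off, and Usp17la, a deubiquitinase gene, at 2100.0 in BRAF-on, 1279 with ZEB2, 864 with SNAIL2, 3316 with TWIST1, 4130.1 with ZEB1 and 336 in BRAF-off. All 3 were lowest in BRAF-off. Evi2a was at 533 in BRAF-on and 54.5 in BRAF-off, at least 8.36-fold, and Nefm, the medium neurofilament chain, at 423 in BRAF-on and 40.9 in BRAF-off, at least 6.64-fold. Gzme, a granzyme gene with close copies that its probes may also read, was 3.29-fold higher, and Arc, a gene of the immediate early kind known from neurons, 3.20-fold. Sgk2, a kinase gene, was 3.52-fold higher, Wfdc18 3.40-fold, Sh3bgrl2 3.53-fold, Bcl2l14 3.36-fold and Tff1, a trefoil peptide gene, 2.83-fold. Bounds of at least 4.33-fold, 3.96-fold and 3.96-fold were found for the serine protease gene Prss22, the surface protein gene Cd24a and the transcription factor gene Irf8. Disp2 (1.58), Apobr (1.63), Ifit1bl2 (1.66), Tcstv1 (at least 2.77) and Pld2 (1.52) had log2 ratios above 1.5.

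On the lower side Six5, a homeobox gene, was at 120.2 in BRAF-on, 162 with ZEB2, 194 with SNAIL2, 109 with TWIST1, 103 with ZEB1 and 377 in BRAF-off. Gja3, a gap junction gene, was at 50.2 in BRAF-on, 67.8 with ZEB2, 68.6 with SNAIL2, 16.8 with TWIST1, 12.5 with ZEB1 and 227 in BRAF-off. Both were lower than BRAF-off on all 5 activated arrays. Cfap54 was at 197 in BRAF-on, 939 with ZEB2, 1667 with SNAIL2, 11.5 with TWIST1, 16.5 with ZEB1 and 497 in BRAF-off and Sucnr1, the succinate receptor, at 72.3 in BRAF-on, 266 with ZEB2, 227 with SNAIL2, 2.57 with TWIST1, 23.9 with ZEB1 and 194 in BRAF-off. These were above BRAF-off with ZEB2 and SNAIL2. Pgf, a growth factor of the VEGF family at a log2 ratio of -1.21, was below BRAF-off in BRAF-on alone. It was at 68.4 in BRAF-on, 213 with ZEB2, 344 with SNAIL2, 168 with TWIST1, 224 with ZEB1 and 158 in BRAF-off. Plxdc2 (-1.39), Lrtm2 (-1.28) and Cnmd (-1.15), which encodes chondromodulin, were lower in BRAF-on but above BRAF-off with TWIST1. Npnt, a matrix protein of basement membranes, had a log2 ratio of -1.20, Cd200 -1.29, Atp10b -1.21 and Tmem219 -1.08. Gpm6a, a neuronal membrane protein gene (-1.10), Lysmd2 (-1.10), Zbed6 (-1.07) and Mfap3l (-1.05) were just past 2-fold. The other probe sets of Zbed6 and Mfap3l had log2 ratios of -0.01 and 0.02. Those of Tmem219 and Plxdc2 were at 0.09 and 0.004, the set of Plxdc2 being close to the floor. Bounds were found for Nrxn3 (at most -1.86), Eya4 (at most -1.25), Susd1 (at most -1.19) and Mlip (at most -1.14). Cyp4b1 (at most -1.12), Ankrd2 (at most -1.05) and Mme (at most -1.02), which encodes the peptidase neprilysin, followed, while the bounds of Zfp30 (-0.93) and Casp14 (-0.91) were short of 2-fold. Flnc (-1.52) and Elovl7 (-1.24) rest on a probe set that matches several transcripts, and without such sets their log2 ratios were 0.049 and 0.38; likewise Pld2 was at -0.21.

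Other probe sets of the same genes give a check within the same 2 arrays. Of the 116 higher genes 20 had another probe set at or above the floor on either array, 27 sets in all. Of these 24 had the same sign, 11 were also at least 2-fold higher and none was 2-fold lower. Of the 43 lower genes 16 had 28 other sets, of which 17 had the same sign and 5 were also at least 2-fold lower. For Dus2, a tRNA-modifying enzyme gene, the set used had a log2 ratio of -1.51 and the other set one of 1.17.

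Recurrence on the 4 arrays with an added factor was read against BRAF-off. These arrays share the BRAF-off array with the comparison that chose the genes, so the counts describe and do not support. Of the 116 higher genes, 109 were above BRAF-off with ZEB2, 87 with SNAIL2, 111 with TWIST1 and 115 with ZEB1. For the 54 of them with a bound, BRAF-off stood at the floor, so no array could lie below it. Their side was thus partly fixed in advance. At least 2-fold higher were 45 (38.8%) with ZEB2, 23 (19.8%) with SNAIL2, 77 (66.4%) with TWIST1 and 104 (89.7%) with ZEB1. Over all 11200 genes the same shares were 0.964%, 3.83%, 2.88% and 6.78% with ZEB2, SNAIL2, TWIST1 and ZEB1. The median log2 ratio of the 116 genes over BRAF-off was 0.74 with ZEB2, 0.42 with SNAIL2, 1.32 with TWIST1 and 2.23 with ZEB1. At least 2-fold higher on all 4 were 15 genes (12.9%), and 9 (7.76%) were so on none. The 15 were Mmp10, Mmp1a, Mmp13, Mmp3, Serpinb2, Evi2a, Usp17la, Zfp352, Prss22, Sgk2, Wfdc18, Lce1i, Anks3, Tenm4 and BC080696. Of these, the second probe set of Anks3 had a log2 ratio of -0.15 in BRAF-on.

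The 43 lower genes, whose BRAF-off signals were all above the floor, lay on both sides of BRAF-off on these arrays. Below BRAF-off lay 22 with ZEB2, 24 with SNAIL2, 32 with TWIST1 and 36 with ZEB1. At least 2-fold lower were 11 (25.6%) with ZEB2, 9 (20.9%) with SNAIL2, 26 (60.5%) with TWIST1 and 28 (65.1%) with ZEB1, against 0.321%, 5.29%, 2.59% and 5.34% of all genes. As many as 9 genes were at least 2-fold above BRAF-off with SNAIL2 and 4 with TWIST1. Gja3 alone was at least 2-fold lower on all 4, with both of its signals with ZEB2 and SNAIL2 close to the floor. The median log2 ratio of the 43 genes over BRAF-off was -0.14 with ZEB2, -0.08 with SNAIL2, -1.14 with TWIST1 and -1.20 with ZEB1.

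**Figure D5:**
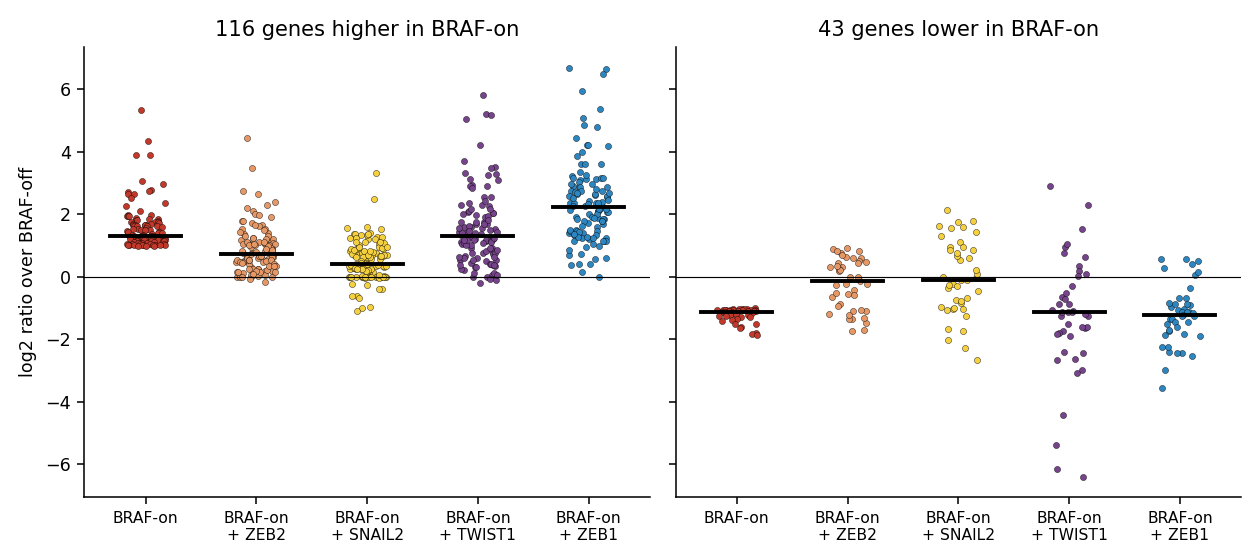
Log2 ratio over BRAF-off (vertical axis) on each activated array for the 116 genes higher in BRAF-on (left panel) and the 43 lower ones (right panel); each point is a gene and the black bar the median. The higher genes stay mostly above 0 on the other 4 arrays, with medians of 0.74, 0.42, 1.32 and 2.23 with ZEB2, SNAIL2, TWIST1 and ZEB1, while the lower genes spread to both sides of 0, most of all with SNAIL2 and TWIST1. The 54 higher genes with BRAF-off at the floor cannot fall below 0, whereas every lower gene can.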

How the data were processed

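Total RNA of 6 cultures, 1 array a group, was hybridised to Affymetrix 3' arrays. Per the submitters' processing notes, the deposited intensities (linear MAS5 signals) came from Affymetrix Expression Console 1.1. They were already scaled: the mean of each array, leaving out 2% at either end, was 500.0. Of 45101 probe sets, 64 were controls. The platform annotation gave 34945 sets 1 gene symbol, and these stood for 18193 genes, 34741 of the sets being in the RefSeq table of GRCm38.p6. Sets with several symbols (932) or none (9160) were left out. A gene took its brightest probe set by mean log2 signal over all 6 arrays. No further normalization was made, and the floor was the 50th percentile of all values without controls. Size alone, at least 2-fold, was counted.

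The members and the 37 gene lists were chosen with earlier results of these data known. Of 621 list entries 579 had a probe set. Medians hold genes with a bound at that bound. The rule for naming genes took the 20 widest log2 ratios each way measured on both arrays, the 10 widest bounds each way, list members past 2-fold, up to 5 others a list, and whole lists for the kinases, feedback genes, AP-1, tetrahydrobiopterin, melanin and lineage factors; of the marker lists, which it also covered, sums and defining genes are given. Clone names, and genes with another probe set 1.5-fold the other way, were left out of the first 2 kinds. Other genes, such as Cdkn2a, Mki67, Vim, Cdh1, Dus2 and the neighbours of Mmp10, are not covered by it and were picked with their values in view. The counting was tested on simulated data with little added noise. Only genes well above the floor were changed there, so the counting of dim genes that differ was not tested. The 10 alternatives and their effect are given at the end. Tools were Python 3.11.15, numpy 2.4.6, pandas 2.3.3 and matplotlib 3.10.9.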

Additional observations from a re-analysis of the deposited data

Results flagged for a closer look

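Probe sets with no gene symbol took no part in the counts above. Of 9160 such sets, 2630 reached the floor in BRAF-on or BRAF-off. Among these, in BRAF-on 18 (0.684%) lay at least 2-fold above BRAF-off and 5 (0.190%) at least 2-fold below it, shares below the 1.04% and 0.384% of named genes. What transcripts they read was not analysed here. No group had the 4 arrays needed to look for a sample far from the others.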

How the results depend on the processing

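The counts of higher and lower genes moved with the handling of dim signals and with the size that counts. They were 44 and 19 with a 60th percentile floor, 15 and 6 at the 75th, 352 and 94 with no floor, 98 and 21 with the floor as a pseudocount, 41 and 5 at 3-fold, and 449 and 268 at 1.5-fold. Centring gave 92 and 101, quantile normalization 102 and 53, the median of all probe sets 109 and 32, and leaving out probe sets of several transcripts 98 and 40. The share of higher genes above BRAF-off on all 4 arrays with a factor, 71.6% as reported, was 60% at the 75th percentile floor, 87.8% with the pseudocount, 85.4% at 3-fold and 49.0% at 1.5-fold. The share of lower genes below it on all 4, 20.9% as reported, was 60% at 3-fold, over 5 genes, 33.3% at the 75th percentile floor, 33.3% with the pseudocount and 15.6% when probe sets were combined by their median. Centring turned list medians near 0 below it: feedback inhibitors -0.10, ETS factors -0.19, CDK inhibitors and senescence genes -0.18, mitosis genes -0.18, the BCL2 family -0.19, glycolysis -0.13, stress -0.10, adhesion -0.07 and oestrogen response genes -0.10. Other medians that crossed 0 were adhesion genes (-0.08) and the BCL2 family (-0.00) at the 75th percentile floor, fibroblast markers (-0.02) at the 60th, ETS factors (-0.01) and mitosis genes (-0.01) without sets of several transcripts, and the tetrahydrobiopterin list (0.00 with quantile normalization, 0.02 with the median of all probe sets, 0.06 without sets of several transcripts). Signs also turned for the keratinocyte marker median (-0.27 at the 60th percentile), the fibroblast marker median (-0.21 at the 75th), Elovl7 (0.086 with the median of all probe sets, 0.38 without sets of several transcripts), Pld2 (-0.21) and Flnc (0.049), the last pair without those sets. A higher floor or a larger size counts fewer genes by construction, and other causes were not tested. Of 81 named or listed genes past 2-fold, 80 stayed past it with quantile normalization, 78 with centring, and 44 of the 79 still compared with the 60th percentile floor. No paired analysis was possible because each group has 1 array. Dim signals limit single genes near 2-fold most, and with 1 array a group no replicate could be left out.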

Other observations

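A few gene groups were put together after the values were seen, so they carry no support and their counts follow from that choice. Over all compared genes 1.04% were at least 2-fold higher. Members under the floor in BRAF-off entered the counts only through BRAF-on, and members under it on both arrays were left out. Genes known from the embryo at the 2-cell stage had 3 of 4 compared members at least 2-fold above BRAF-off in BRAF-on: Tcstv1 at 436 in BRAF-on and 50.3 in BRAF-off, Zfp352 at 376 in BRAF-on and 73.3 in BRAF-off and Usp17la at 2100.0 in BRAF-on and 336 in BRAF-off. Tcstv3 was at 111 in BRAF-on and 33.9 in BRAF-off, a log2 ratio of at least 0.80. All 4 were higher with TWIST1 and ZEB1 than in BRAF-on, Tcstv1 at 708 and 782.

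Genes known from leukocytes had 19 members with a probe set, 12 of them compared and 9 at least 2-fold higher. Among the 9 were Cd53 (184 in BRAF-on and 16.2 in BRAF-off), Irf8 (252 in BRAF-on and 60.8 in BRAF-off), C3ar1 (236 in BRAF-on and 54.3 in BRAF-off), Lat2 (157 in BRAF-on and 2.65 in BRAF-off) and Alox5ap (145 in BRAF-on and 47.6 in BRAF-off). These named genes were all under the floor in BRAF-off. Ptprc, Itgam, Adgre1 and Cd14, which define such cells, were under the floor on both arrays, and Lyz2 was at 313 in BRAF-on and 420.5 in BRAF-off. Cornified envelope genes, which build the outer layer of the skin, had 4 of 9 at least 2-fold higher: Lce1i at 254 in BRAF-on and 83.0 in BRAF-off, Lce1h at 478 in BRAF-on and 207 in BRAF-off, Lce1f at 157 in BRAF-on and 50.2 in BRAF-off and Sprr1a at 149.8 in BRAF-on and 33.9 in BRAF-off. The Lce1 genes are near copies of each other, so their probes may share transcripts. Ivl and Flg of the same layer were under the floor on both arrays. The Ifi200 family of interferon-inducible DNA sensors had 2 of 5 higher, Ifi213 at 365 in BRAF-on and 151 in BRAF-off and Ifi207 at 228 in BRAF-on and 96.1 in BRAF-off, and Ifi204 at 1245 in BRAF-on and 834 in BRAF-off was within 1.5-fold.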
